A study of Mus musculus with 9 samples.

Results

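The 6 genes described here are the long non-coding RNAs Neat1 and Malat1 and the RNA-binding protein genes Nono, Sfpq, Pspc1 and Tardbp. They were chosen by symbol from the gene column of the authors' deposited result tables, joined by Ensembl ID to the count files, and are 6 of 54838 genes. Their levels were read in 9 mouse RNA sequencing libraries, of which 6 came from B16F10, a melanoma line of C57BL/6 origin, and 3 from CD8+ T cells that a kit isolated from spleens of adult C57BL/6 mice. The groups were untreated B16F10 (3 libraries), B16F10 given 600 µM hypochlorous acid (HOCl) in culture medium for 5 h (3), untreated T cells (2) and T cells given the same HOCl treatment (1). Neutrophils produce this oxidant with the enzyme myeloperoxidase. Untreated cells were kept in medium without it, and B16F10 is a single established line. The labels do not say that replicates were separate cultures or mice, nor whether mice were pooled. The p-values therefore weigh the difference between groups only against the spread among these libraries, and that spread may be technical.

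Paraspeckles are nuclear bodies built on the long Neat1 RNA, which is made and held at its own gene. NONO, SFPQ and PSPC1 are the 3 mammalian proteins of the DBHS family, which pair with each other, bind Neat1 and act in transcription and splicing. NONO and SFPQ are needed for paraspeckles to form, and PSPC1 joins them. TDP-43, the product of Tardbp, binds UG-rich RNA and can shift Neat1 between its short and long forms. Malat1 is made from the neighbouring gene, is an abundant RNA of nuclear speckles and, like long Neat1, is cut by RNase P at its 3′ end rather than given a poly(A) tail.

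The 3′ ends of both RNAs are shown because the RNase P product has no poly(A) tail, and whether poly(A) RNA was selected is not given in the sources used here. Sequences are from GENCODE M21 on GRCm38, the build of the files (mm10), and all lie on the minus strand. Capitals in Malat1 and long Neat1 mark a U-rich stretch of 10 bases (U written as T) and the A-rich tract that ends in 11 bases shared by both RNAs. Capitals in short Neat1 mark the polyadenylation signal. The stretches run over chr19:5795923-5796082 for Malat1, chr19:5824708-5824797 for long Neat1, chr19:5842307-5842366 for short Neat1 and chr19:5824652-5824707 for Gm27702, a small RNA model next to the Neat1 end.
Malat1: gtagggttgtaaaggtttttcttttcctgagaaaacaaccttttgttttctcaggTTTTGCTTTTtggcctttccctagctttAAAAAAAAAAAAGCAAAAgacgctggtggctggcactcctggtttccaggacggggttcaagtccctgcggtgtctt
Neat1 long: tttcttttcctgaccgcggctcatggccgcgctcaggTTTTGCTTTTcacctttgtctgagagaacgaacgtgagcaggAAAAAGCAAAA
Neat1 short: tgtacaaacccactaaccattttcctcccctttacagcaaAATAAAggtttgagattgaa
Gm27702: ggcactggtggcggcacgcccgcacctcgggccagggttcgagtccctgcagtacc
Long Neat1 stopped in the model at the A-rich tract, 32 bases after the U-rich stretch, and the bases of Gm27702 followed directly. In Malat1 the gap between the marked stretches was 18 bases, and the gene model ran on for 292 bases past the tract. Short Neat1 held no A-rich tract of this kind and ended 20 bases from the first base of AATAAA. Gm27702 had 0 counts in 8 libraries and 5 counts in the T cell HOCl library.

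Neat1 (ENSMUSG00000092274) lies at chr19:5824708-5845478 and Malat1 (ENSMUSG00000092341) at chr19:5795690-5802672, both lincRNA genes. The exons of Neat1 cover 20771 bases. Its short transcript, Neat1-202, has 3004 bases and lies inside the long one, so counts per gene do not separate the forms. Malat1 exons cover 6983 bases. Nono lies at chrX:101429318-101448591 (plus strand), Sfpq at chr4:127021324-127037013 (plus), Pspc1 at chr14:56720710-56778316 (minus) and Tardbp at chr4:148612382-148627019 (minus), all protein-coding. How the authors' counting treated strand is not given in the sources used here. Within Neat1 and Malat1, the nested models Gm27533, Gm27505, Gm28006, Gm27694 and Gm37376 had 0 counts in all 9 libraries. A count of 0 does not show whether reads in those stretches were counted for Neat1 or Malat1 or left out. Gm12940 overlaps Sfpq on the same strand and Masp2 overlaps Tardbp on the other, so reads in those overlaps are uncertain too.

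B16F10 libraries held 45.9 to 61.35 M gene counts, untreated T cell libraries 49.9 and 52.1 M, and the library labelled T cell HOCl 12.85 M. The lowest count of a member was 648, for Pspc1 in the T cell HOCl library. That library stood apart. Counts were found for 44225 of its genes, compared with 22855 to 25907 in each other library, and mitochondrial genes took 37.4% of its counts against 0.5003 to 2.11%. Summed counts per M of the library total (CPM) of 7 melanocyte markers (Mlana, Pmel, Dct, Tyr, Tyrp1, Sox10 and Mitf) were 24050 to 25080 in B16F10, 101 and 25.6 in untreated T cells, and 6712 in the T cell HOCl library. Summed CPM of 7 T cell markers (Cd3d, Cd3e, Cd3g, Cd247, Cd8a, Cd8b1 and Lck) were 2667 and 2608 in untreated T cells and 501 in the T cell HOCl library. They were 4.32 to 6.04 in 5 B16F10 libraries and 24.4 in B16F10 HOCl replicate 3. Replicates differed beyond counting noise, with a chi-square per degree of freedom of 3.73 to 23.2 for pairs of B16F10 libraries and 393 for the pair of untreated T cell libraries.

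In B16F10 cells given HOCl, Pspc1 rose while its DBHS partners Nono and Sfpq and the TDP-43 gene Tardbp fell. The RNA scaffold Neat1 and Malat1 did not pass the test. Thus 1 of 6 members was higher and 3 were lower at an adjusted p under 0.05 (edgeR's quasi-likelihood test, Benjamini-Hochberg adjustment over all genes). Over all 16082 genes tested the shares were 14.7% higher, 13.5% lower and 28.3% in either direction. The CPM ranges of the groups did not overlap for 4 of 6 members, against 43.6% of all genes tested. The changes of the 4 called members were small, at most 1.33-fold.

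Pspc1, the DBHS protein gene with the lowest level per exon length, stood at 54.0, 55.2 and 55.7 CPM in untreated replicates 1, 2 and 3. After HOCl it stood at 74.1, 77.5 and 71.8 CPM. All 3 HOCl libraries were above all 3 untreated ones, with a gap far wider than the spread within either group. By edgeR, Pspc1 rose by 0.41 ± 0.05 (SE) on the log2 scale, which is 1.33-fold (adjusted p = 0.000175).

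Nono stood at 389.8, 419 and 408 CPM in untreated cells and at 353, 370.3 and 353 CPM after HOCl. Sfpq stood at 432, 439 and 440.2 CPM untreated and at 373, 386 and 367 CPM after HOCl. For both genes every HOCl library was below every untreated one. Nono fell by 0.21 ± 0.05 (SE) on the log2 scale and Sfpq fell by 0.25 ± 0.04, with adjusted p-values of 0.00669 and 0.00153 by edgeR. The ratio of Nono to Sfpq counts stayed between 0.902 and 0.962 in all 6 B16F10 libraries.

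Tardbp stood at 309, 309 and 299 CPM in untreated cells and at 240.1, 259.8 and 254 CPM after HOCl. The groups did not overlap. Tardbp fell by 0.31 ± 0.05 (SE) on the log2 scale, a level 1.24-fold lower (adjusted p = 0.000553 by edgeR). In 2 kinds of fit the calls of Nono, Sfpq, Pspc1 and Tardbp were lost. With the T cell libraries in the same fit, so that 8 or 9 libraries shared 1 estimate of the spread, their adjusted p by edgeR ran from 0.1101 to 0.7156. Against a change of 1.5-fold (edgeR's glmTreat) it was 1 for each. The HOCl calls of listed genes and neighbours given below were lost in these fits too, except that of Ftx in the fit of 9 libraries.

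Neat1 stood at 29.96, 42.3 and 27.98 CPM in untreated replicates 1, 2 and 3 and at 33.5, 36.7 and 38.2 CPM after HOCl. Untreated replicate 2 was the highest of the 6 libraries and the other untreated libraries were the lowest, so the HOCl values lay inside the untreated range. Its log2 fold change was 0.09 ± 0.13 (SE), adjusted p = 0.672 by edgeR. It became 0.29 (adjusted p = 0.0178) without untreated replicate 2 and −0.02 (adjusted p = 0.939) without untreated replicate 3.

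Malat1 stood at 169.9, 156 and 155 CPM untreated and at 139, 127 and 169.8 CPM after HOCl. HOCl replicates 1 and 2 were below all untreated libraries, and HOCl replicate 3 was level with the highest of them. The log2 fold change was −0.17 ± 0.09 (SE), adjusted p = 0.189 by edgeR. Without HOCl replicate 3 it was −0.29 (adjusted p = 0.0120). With no filter on low counts, which brings more genes into the fit, it was −0.17 with an adjusted p of 0.0187. HOCl replicate 3 was the library with T cell markers at 24.4 CPM, and untreated T cells held 797 and 1587 CPM of Malat1. The part of T cell RNA in that Malat1 value was not tested.

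**Figure D1:**
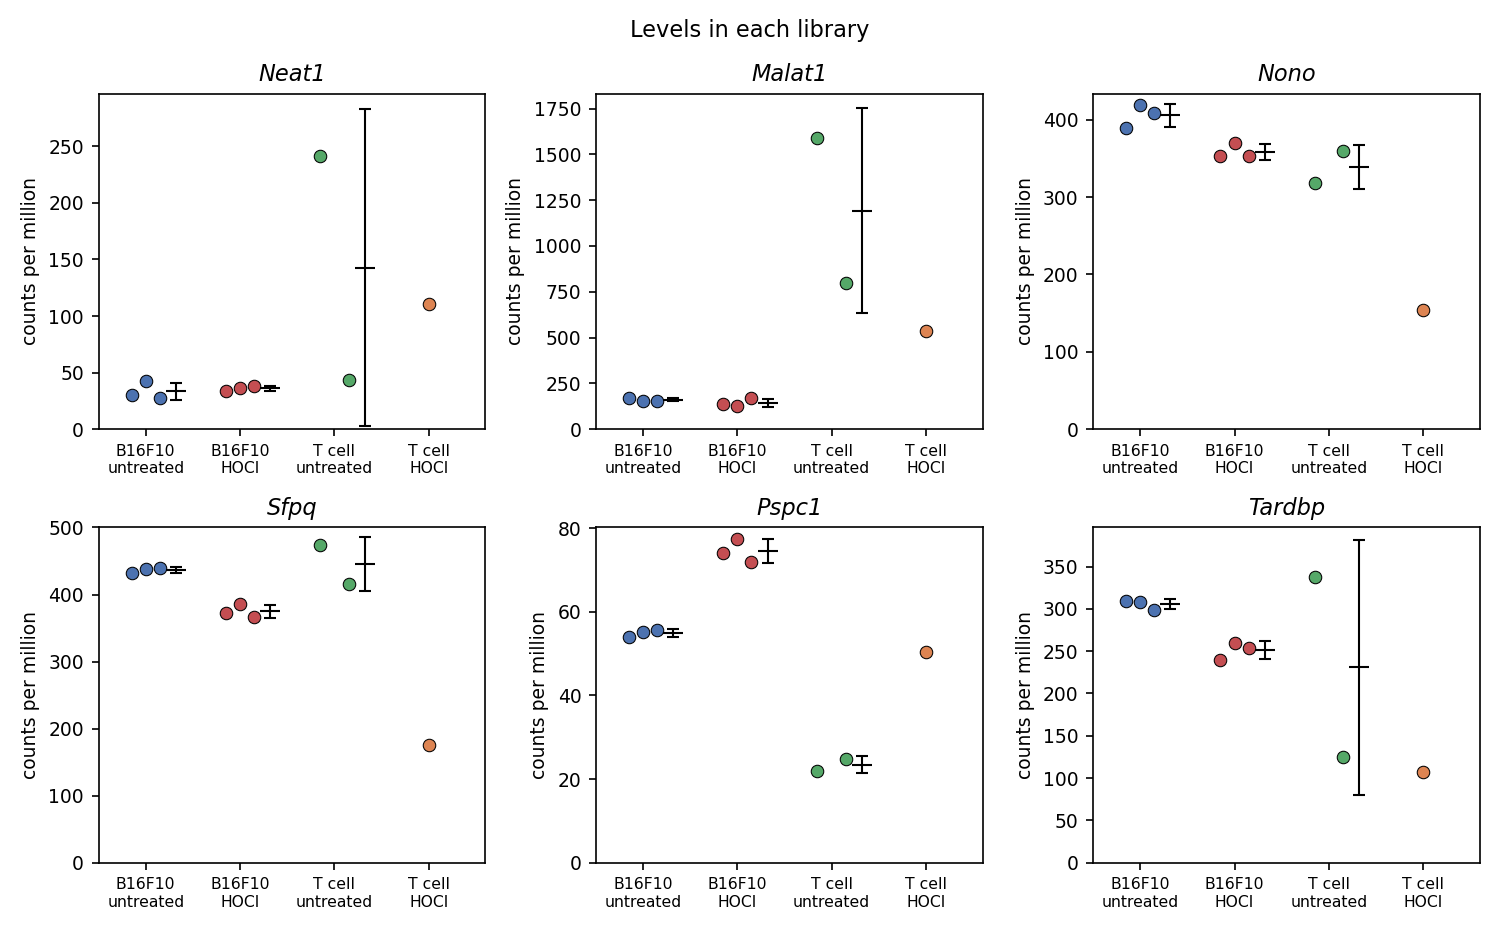
CPM (vertical axis, from 0) of each gene in the 9 libraries, by group; points are libraries, and the bar beside them is mean ± SD where a group has more than 1 library. Pspc1 in HOCl B16F10 lies above untreated B16F10, Nono, Sfpq and Tardbp lie below it, and the 2 untreated T cell libraries are far apart for Neat1, Malat1 and Tardbp.

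The authors' deposited table for B16F10 gave log2 fold changes of 0.40 for Pspc1, −0.20 for Nono, −0.24 for Sfpq and −0.30 for Tardbp, with adjusted p-values from 3.12e-09 to 0.000820. In the authors' deposited table Neat1 stood at 0.08 (adjusted p = 0.629) and Malat1 at −0.16 (adjusted p = 0.126). That table names its groups by number only, so its signs were taken as deposited.

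**Figure D2:**
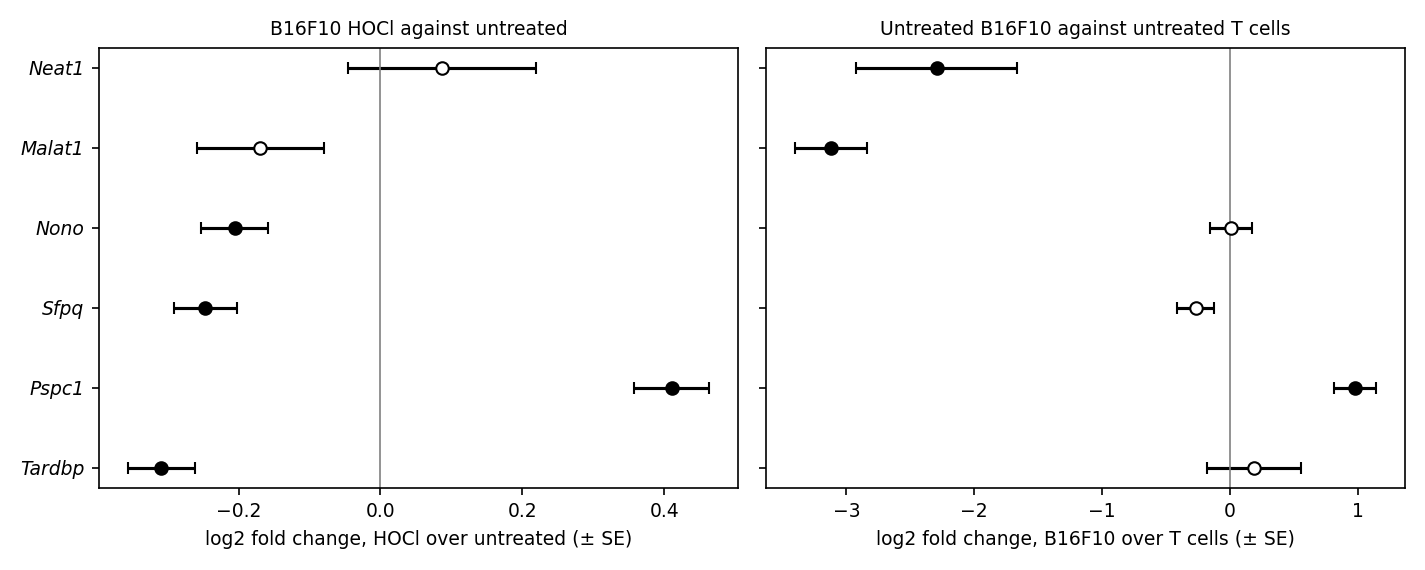
Log2 fold changes ± SE from edgeR for HOCl against untreated B16F10 (left) and for untreated B16F10 against untreated T cells (right); filled points are past an adjusted p of 0.05. With HOCl, Pspc1 lies right of 0 and Nono, Sfpq and Tardbp lie left of it, and at baseline Malat1 and Neat1 lie furthest left.

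The make-up of the DBHS family was compared within each library, which does not depend on the library total. Pspc1 took 4.97%, 4.86% and 4.96% of the summed Nono, Sfpq and Pspc1 counts per exon length in untreated B16F10. After HOCl it took 7.504%, 7.53% and 7.35%. The groups did not overlap: 4.93% ± 0.0601 (SD, n = 3) against 7.46% ± 0.0967 (SD, n = 3). The exact two-sided permutation test gave p = 0.1, the smallest that 3 against 3 libraries allow, and 0.2 adjusted over the 4 within-library measures tested. The share was 2.18% and 2.495% in untreated T cells and 10.9% in the T cell HOCl library.

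Malat1 counts were 5.67, 3.69 and 5.53 times Neat1 counts in untreated B16F10 and 4.16, 3.45 and 4.45 times after HOCl. These ranges overlapped (exact permutation p = 0.3). For the ratio of Nono to Sfpq the exact permutation p was 0.2. Together the 6 genes took 0.139% to 0.142% of all counts in untreated B16F10 and 0.121% to 0.126% after HOCl, with no overlap (exact permutation p = 0.1).

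**Figure D3:**
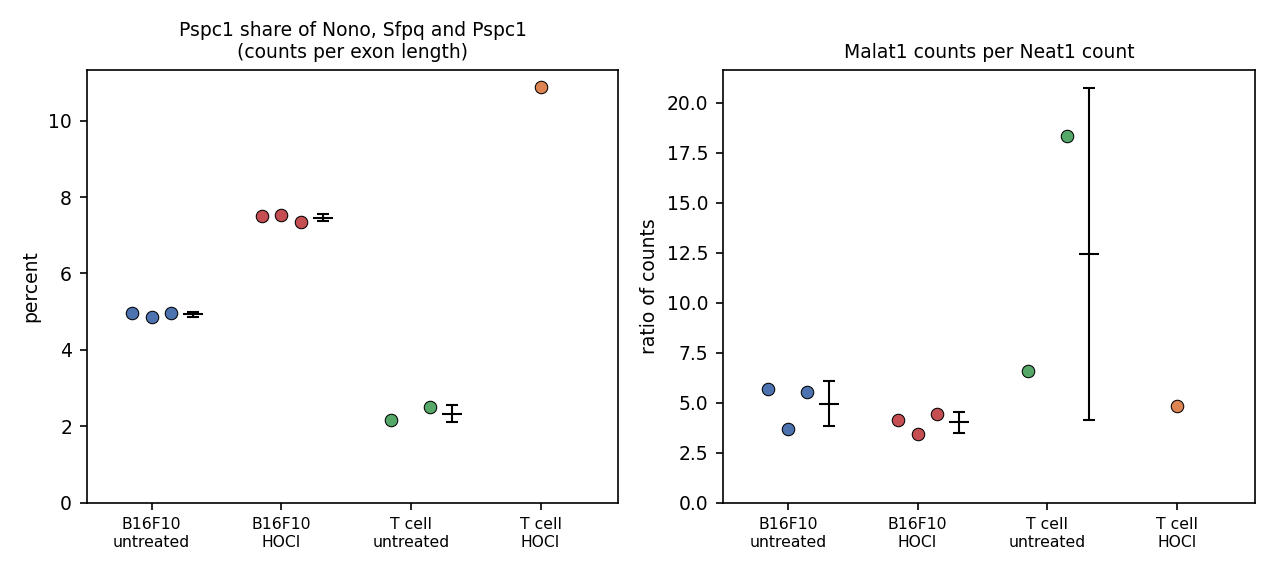
Left, Pspc1 as a percent of Nono, Sfpq and Pspc1 counts per exon length; right, Malat1 counts per Neat1 count. Points are libraries and bars are mean ± SD; the Pspc1 share is 4.86% to 4.97% in untreated and 7.35% to 7.53% in HOCl B16F10, whereas the Malat1 to Neat1 ratios of those groups overlap.

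The promoters of the 4 members that changed with HOCl are shown because these genes moved in opposite directions. Each is the 250 bases before the transcription start in RefSeq's GRCm38.p6 annotation, which held 5 of the 6 members and did not hold Neat1. RefSeq and GENCODE place some starts differently. The Nono window lies inside the GENCODE Nono gene given above, and the Tardbp window overlaps the start of the GENCODE Tardbp gene. Capitals mark CCAAT or its reverse complement ATTGG, and GGGCGG or CCGCCC, the GC box. The windows are chrX:101429401-101429650 (plus strand), chr4:127021051-127021300 (plus), chr4:148626997-148627246 (minus) and chr14:56778319-56778568 (minus).
Nono: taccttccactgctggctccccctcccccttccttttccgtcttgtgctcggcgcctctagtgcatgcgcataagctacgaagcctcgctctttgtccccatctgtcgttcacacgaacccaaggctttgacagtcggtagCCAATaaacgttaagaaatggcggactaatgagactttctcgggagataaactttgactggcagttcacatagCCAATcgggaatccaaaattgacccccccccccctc
Sfpq: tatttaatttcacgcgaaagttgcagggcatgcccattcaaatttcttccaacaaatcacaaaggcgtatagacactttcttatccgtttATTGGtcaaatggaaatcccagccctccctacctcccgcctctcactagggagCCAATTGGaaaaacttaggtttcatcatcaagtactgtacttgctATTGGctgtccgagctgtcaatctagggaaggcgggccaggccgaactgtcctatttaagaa
Tardbp: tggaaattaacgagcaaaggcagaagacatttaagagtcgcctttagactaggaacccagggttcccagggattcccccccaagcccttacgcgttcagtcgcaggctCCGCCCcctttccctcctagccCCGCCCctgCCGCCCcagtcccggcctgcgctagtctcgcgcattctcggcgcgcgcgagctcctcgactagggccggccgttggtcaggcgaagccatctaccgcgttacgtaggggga
Pspc1: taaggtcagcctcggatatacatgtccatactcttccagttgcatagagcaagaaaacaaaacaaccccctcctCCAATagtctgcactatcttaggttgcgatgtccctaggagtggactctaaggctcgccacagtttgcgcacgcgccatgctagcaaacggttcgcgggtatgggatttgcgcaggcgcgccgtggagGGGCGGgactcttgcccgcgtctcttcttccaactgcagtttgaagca
CCAAT or ATTGG occurred 4 times upstream of Sfpq, 2 times upstream of Nono and 1 time upstream of Pspc1, with 2 of the Sfpq matches overlapping on opposite strands. Of 32851 promoter windows of this length, 33.8% held at least 1 such match. GC boxes occurred 3 times upstream of Tardbp and 1 time upstream of Pspc1, and in 32.7% of all windows. None of the 5 windows, Malat1 included, held TGACNNNGC or GCNNNGTCA (antioxidant response element, 10.2% of windows), GAANNTTC (heat shock element, 6.69%) or CACGTG (E box, 6.02%). A match is a string of letters only.

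Of 31 genes listed for other paraspeckle proteins, 6 fell with HOCl and 0 rose by edgeR, beside 13.5% and 14.7% of all genes tested. The list's median log2 fold change was −0.06 against −0.01 over all genes tested. At an unadjusted p under 0.05 edgeR had 1 rise, and DESeq2 had 0 after adjustment. Rbmx, a nuclear RNA-binding protein gene, went from 74.4 ± 1.12 (SD, n = 3) to 54.8 ± 1.03 CPM and fell by 0.47 on the log2 scale (adjusted p = 5.06e-05 by edgeR). Hnrnpm, a splicing regulator gene, fell by 0.27 and Rbm14, whose product is needed for paraspeckles to form, fell by 0.26. Without HOCl replicate 3 the list had 3 falls, and without untreated replicate 1 it had 10 falls and 2 rises.

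Among 17 nuclear speckle genes, the proteins of the body in which Malat1 gathers, 6 fell and 1 rose with HOCl (median −0.12). Of all genes tested 13.5% fell and 14.7% rose. Srsf3, a splicing factor of the SR family, went from 344 ± 21.2 to 215 ± 3.07 CPM (SD, n = 3). It fell by 0.70 on the log2 scale (adjusted p = 5.37e-06 by edgeR), the largest fall among the genes of these lists. Rbm25 fell by 0.46 and the SR factor gene Srsf1 by 0.24. Thrap3 rose by 0.21 (adjusted p = 0.0107 by edgeR), a call lost without HOCl replicate 1.

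Of 11 genes for proteins that cut or bind the 3′ ends printed above, 2 rose and 3 fell with HOCl. All 5 encode RNase P subunits. The shares over all genes tested were 14.7% higher and 13.5% lower, which stand beside this list and the next. Rpp38 rose by 0.46 and Rpp14 by 0.24, whereas Rpp40 fell by 0.46, Pop5 by 0.34 and Rpp30 by 0.24. Without HOCl replicate 3 only Rpp40 was left among the falls, and the Rpp30 call was also lost without HOCl replicate 1 or 2. Of 10 tested genes for other nuclear long non-coding RNAs, 2 rose and 0 fell by edgeR, with 0 falls at an unadjusted p under 0.05 and 0 by DESeq2. Ftx, from the X inactivation centre, went from 3.72 ± 0.107 to 6.78 ± 0.564 CPM (SD, n = 3), a log2 fold change of 0.84 (adjusted p = 0.000256 by edgeR). Pvt1 rose by 0.33, a call lost without untreated replicate 3 or HOCl replicate 2.

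Of 4 transcription factor genes reported to act on Neat1 (Trp53, Epas1, Hsf1 and Atf2), Trp53 fell by 0.21 (adjusted p = 0.00783 by edgeR), a call lost without HOCl replicate 3. Of 3 tested genes for RNA editing and retention, Adarb1 rose by 0.36 and Adar fell by 0.16. Beside this list and the 4 transcription factor genes stand the shares over all genes tested, 14.7% higher and 13.5% lower. The Adar call was lost when any 1 of 5 libraries was left out, and the Adarb1 call without untreated replicate 3, HOCl replicate 1 or HOCl replicate 3.

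**Figure D4:**
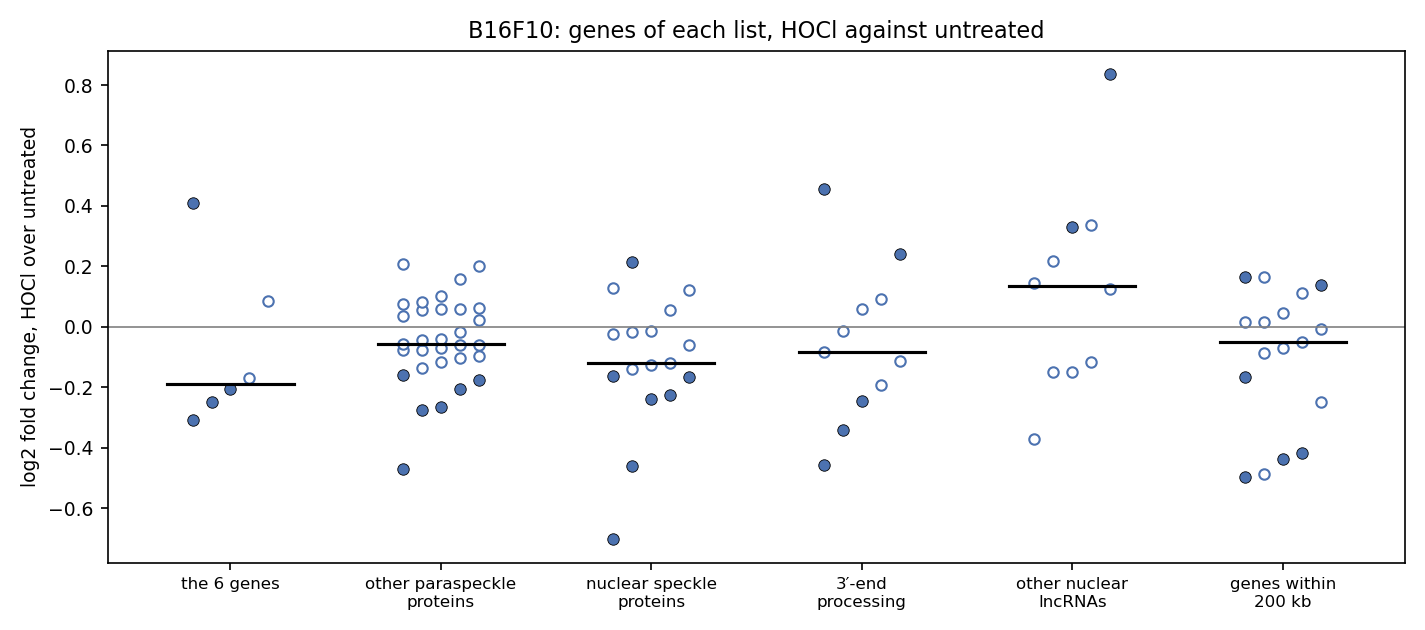
Log2 fold changes, HOCl over untreated B16F10, for tested genes of each list; filled points are past an adjusted p of 0.05 (edgeR) and the line is the list's median. The medians of the lists lie between −0.19, for the 6 genes, and 0.14, for other nuclear long non-coding RNAs.

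The protein-coding genes within 200 kb of Neat1 and Malat1 were examined for a change across the locus. Of 17 tested neighbours, 2 rose and 4 fell with HOCl by edgeR, beside 14.7% and 13.5% of all genes tested. Frmd8, the nearest gene before the Neat1 start, stood at a log2 fold change of 0.11 (adjusted p = 0.1004 by edgeR). Pola2, which encodes a subunit of DNA polymerase alpha, fell by 0.50, Slc25a45 fell by 0.44 and Sipa1 fell by 0.42. Rela, an NF-kB subunit gene, rose by 0.16 and Dpf2 by 0.14. The Rela and Dpf2 calls were lost with no filter and without any 1 of the HOCl libraries. Over all 6 fits that left out 1 library, the Rela call was lost in 4 and the Dpf2 call in 5.

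**Figure D5:**
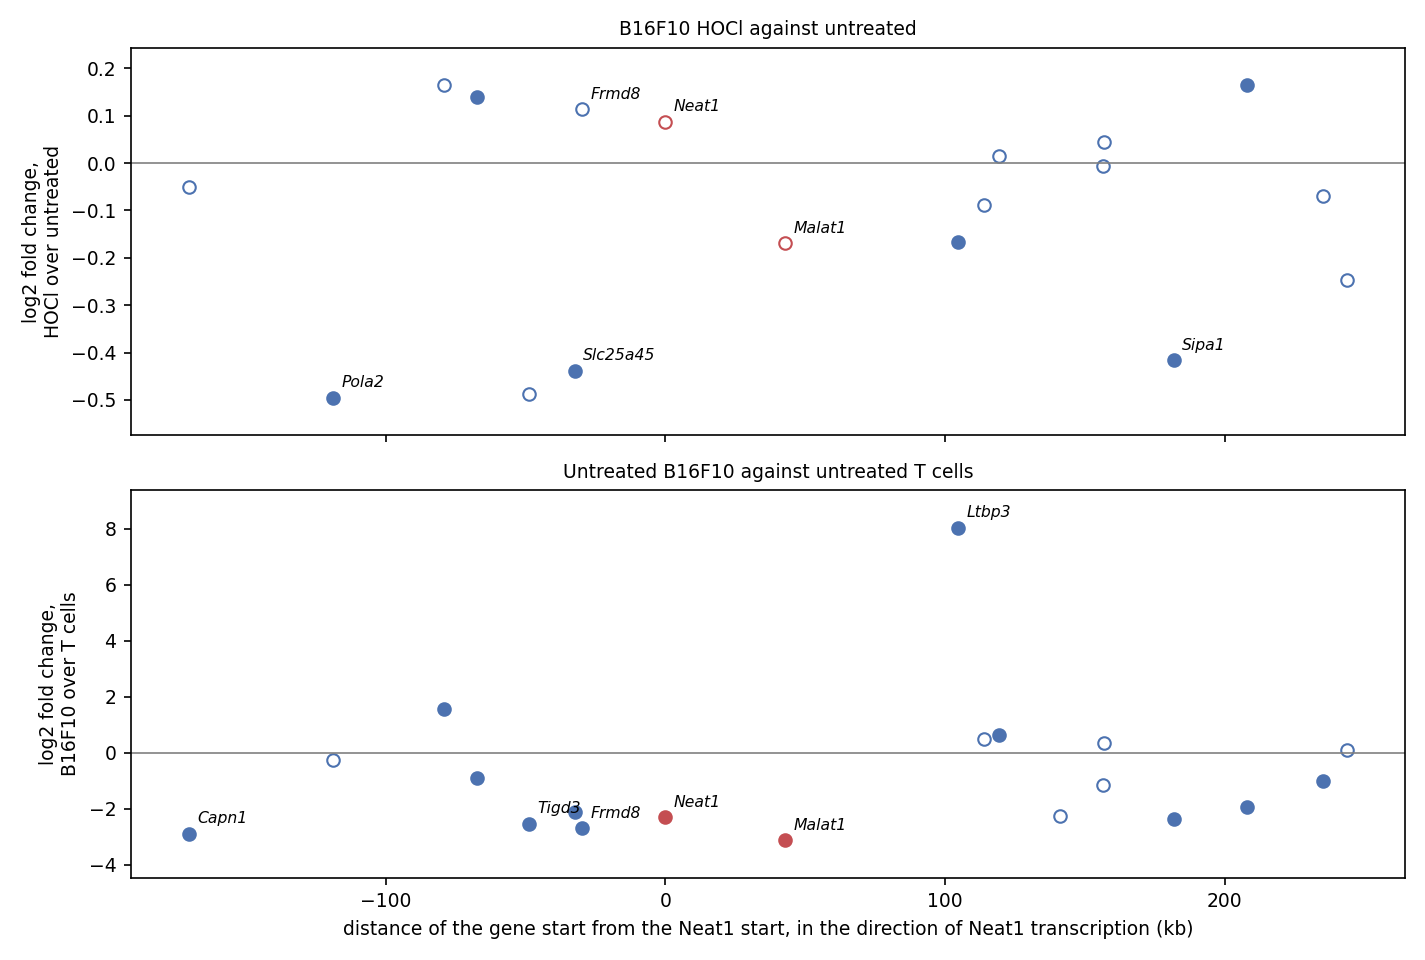
Log2 fold changes of Neat1, Malat1 (red) and the neighbouring protein-coding genes reported here (blue) against the distance of each gene's start from the Neat1 start in kb, for HOCl against untreated B16F10 (top) and B16F10 against T cells (bottom); filled points are past an adjusted p of 0.05 (edgeR). With HOCl neither Frmd8 (0.11) nor Neat1 (0.09) is past the threshold. At baseline Frmd8 (−2.69), Neat1 (−2.30, or −0.67 without T cell replicate 1) and Malat1 (−3.12) lie low, whereas the neighbour Ltbp3 (8.04) lies highest.

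Before any treatment, Malat1 and Neat1 were lower in B16F10 than in T cells, and Pspc1 was higher. Nono, Sfpq and Tardbp did not pass the test. Thus 2 of 6 members were lower in B16F10 and 1 was higher by edgeR, against 35.4% lower, 35.8% higher and 71.1% in either direction over all 18352 genes tested. CPM ranges did not overlap for 4 of 6 members, against 81.8% of genes. In such bulk samples fewer cells of a type and less RNA per cell cannot be told apart.

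Malat1 stood at 155 to 169.9 CPM in the 3 untreated B16F10 libraries and at 1587 and 797 CPM in untreated T cell replicates 1 and 2. Both T cell libraries were above every B16F10 library. By edgeR the log2 fold change, B16F10 over T cells, was −3.12 ± 0.28 (SE), adjusted p = 0.000225. Without T cell replicate 1, the higher of the pair, it was −2.61.

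Neat1 stood at 27.98 to 42.3 CPM in untreated B16F10 and at 242 and 43.5 CPM in the T cell libraries. T cell replicate 1 was far above the rest, and T cell replicate 2 was next to the highest B16F10 library. By edgeR it stood at −2.30 ± 0.63 (SE) on the log2 scale, adjusted p = 0.0178. Most of its size rested on 1 library: it was −0.67 without T cell replicate 1 and −2.99 without T cell replicate 2. The call was lost without B16F10 untreated replicate 1 (adjusted p = 0.0663) and with no filter (adjusted p = 0.126).

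Pspc1 stood at 54.0 to 55.7 CPM in untreated B16F10 and at 22.0 and 24.9 CPM in T cells. All B16F10 libraries were above both T cell libraries. The difference on the log2 scale was 0.98 ± 0.16 (SE), which is 1.97-fold (adjusted p = 0.00254 by edgeR).

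Nono stood at 389.8 to 419 CPM in B16F10 and at 319 and 359 CPM in T cells, so its CPM ranges did not overlap. After TMM scaling, which sets libraries level over most genes, the log2 fold change was 0.01 ± 0.17 (SE), adjusted p = 0.969 by edgeR. Its direction flipped in 7 of 15 alternatives and it passed the threshold in none. Without TMM the median over all genes moved from −0.02 to 0.22, and changes here are relative to the TMM level. Sfpq, at 432 to 440.2 CPM in B16F10 and 473 and 416 CPM in T cells, overlapped between the cell types and stood at −0.27 ± 0.15 (adjusted p = 0.147 by edgeR). Its call moved past the threshold in 5 alternatives. Tardbp stood at 299 to 309 CPM in B16F10 and at 338 and 124 CPM in T cells. Tardbp differed by 0.19 ± 0.37 on the log2 scale (adjusted p = 0.670 by edgeR). This became 1.01 without T cell replicate 1 (adjusted p = 6.24e-07) and −0.28 without T cell replicate 2 (adjusted p = 0.0164).

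The untreated T cell libraries thus differed most in 3 of the members. The name of the count file of replicate 2 carries another prefix than those of the other libraries, and what it marks is not given in the sources used here. Any effect of it cannot be told apart from the difference between these 2 libraries. Replicate 1 held 5.56 times the Neat1 CPM of replicate 2, a gap exceeded by 0.854% of 9488 genes with a mean of at least 5 CPM in those libraries. For Tardbp the factor was 2.71 and for Malat1 1.99, exceeded by 7.53% and 19.4% of those genes. Nono, Sfpq and Pspc1 differed by factors of 1.13 to 1.14. Melanocyte markers stood at 101 CPM in replicate 1 and 25.6 CPM in replicate 2, against 24050 or more in B16F10. Erythroid markers stood at 1.56 and 9.71 CPM. The part of these in the gaps was not tested.

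Per exon length, which allows genes to be compared with each other, Nono and Sfpq led in untreated B16F10 at 92.7 ± 3.39 and 92.1 ± 0.909 CPM per kb (SD, n = 3), with overlapping ranges. Tardbp followed at 39.2, Malat1 at 22.9, Pspc1 at 9.59 and Neat1 at 1.61 CPM per kb, each clear of the next. The order was the same after HOCl. In untreated T cells Malat1 led at 171 ± 80.0 CPM per kb (SD, n = 2), above Sfpq at 93.8, Nono at 77.4 and Tardbp at 29.6. Neat1 at 6.86 ± 6.74 and Pspc1 at 4.09 ± 0.356 CPM per kb overlapped at the low end. With the length of short Neat1 instead of the whole locus, Neat1 stood at 11.1 ± 2.58 CPM per kb (SD, n = 3) in untreated B16F10. By the length of its longest coding transcript Pspc1 stood there at 13.4 ± 0.214, and the ranges overlapped. In untreated T cells Neat1 on that scale stood at 47.4 ± 46.6 CPM per kb (SD, n = 2). With Nono and Sfpq by their longest coding transcripts, Malat1 at 114 to 227 CPM per kb in untreated T cells overlapped both. Nono stood there at 124 to 140 CPM per kb and Sfpq at 120 to 137. In untreated B16F10, Nono by that length stood at 152 to 164 CPM per kb, clear of Sfpq at 125 to 127.

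Among the listed genes at baseline, 11 of 31 other paraspeckle proteins were lower in B16F10 and 3 were higher by edgeR, beside 35.4% and 35.8% of all genes tested, so the lower share was near that of all genes. Without TMM scaling these were 7 and 7. Without either T cell library they were 14 and 9, and without B16F10 untreated replicate 1 or 3 the lower ones were 6 or 7. Cirbp, a cold-inducible RNA-binding protein gene, stood at 18.0 ± 2.18 CPM (SD, n = 3) in B16F10 and 102 ± 12.7 (SD, n = 2) in T cells, a log2 fold change of −2.74. Hnrnph3 stood at −2.45 and Fam98a at 1.18. Of 17 nuclear speckle genes 11 were lower and 1 was higher. The higher count was 0 with DESeq2 size factors and without any 1 of the B16F10 libraries, and 3 without T cell replicate 1. The lowest log2 fold changes among the calls were those of Pnisr at −2.16 and Srrm2, a core speckle scaffold gene, at −1.79. Most of both sizes rested on T cell replicate 1, without which Pnisr stood at −0.80 and Srrm2 at −0.56. Both of those calls were lost with no filter, with adjusted p-values of 0.0719 and 0.0761 by edgeR, and the Srrm2 call also without B16F10 untreated replicate 1. In the T cell libraries these 17 genes had a median log2 ratio of replicate 1 to replicate 2 of 0.40 against 0.18 over the 9488 genes.

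Of the 10 tested nuclear long non-coding RNAs, 5 were lower in B16F10 at baseline, beside 35.4% of all genes tested. Firre and Pvt1, 2 of the 10, were higher, beside 35.8% of all genes tested. The higher count was 0 without B16F10 untreated replicate 1, 1 without B16F10 untreated replicate 2 or 3, and 3 without T cell replicate 2. Kcnq1ot1, a long RNA of an imprinted locus, stood at −2.98, and at −1.87 without T cell replicate 2. Firre stood at 3.28, and at 5.82 without T cell replicate 1 and 2.46 without T cell replicate 2. Its call was lost with no filter and without B16F10 untreated replicate 1. Pvt1 stood at 0.80 (adjusted p = 0.0254 by edgeR), a call lost without any 1 of the B16F10 libraries. Xist stood at 0.491 ± 0.117 CPM (SD, n = 3) in B16F10 and 308 ± 344 (SD, n = 2) in T cells. The 2 T cell libraries were far apart for Xist, at 65.3 CPM in 1 and 551 CPM in the other. Of 11 genes for 3′-end processing 5 were higher in B16F10 (9 without T cell replicate 2) and 1 was lower (2 without T cell replicate 1). Pop1, an RNase P subunit gene, went from 3.53 CPM in T cells to 63.7 in B16F10, and Rpp21 from 22.8 to 4.17. Of 18 tested neighbours of Neat1, 8 were lower in B16F10 and 4 were higher (2 without B16F10 untreated replicate 2 or 3), so the share called in either direction was near the 71.1% of all genes. Frmd8, next to the Neat1 start, stood at −2.69, Capn1 at −2.89 and Ltbp3 at 8.04.

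The genes whose levels over the 9 libraries lay closest to Neat1 were Mtcp1, Zfc3h1, Inpp4a, Amer1 and Pnisr, at Euclidean distances of 0.69 to 0.87 in centred log2 CPM, among 11051 genes with a mean of at least 5 CPM. All 5 were highest in T cell replicate 1, as Zfc3h1 shows with 239 CPM there and 33.2 in replicate 2. The genes closest to Malat1 were 3110056K07Rik, Ctps2, Adam19, Map4k1 and Nfkbiz, at distances of 0.60 to 0.71, all higher in both untreated T cell libraries than in any B16F10 library. Malat1 ranked 427 in likeness to Neat1 and Neat1 ranked 481 in likeness to Malat1, at a distance of 2.04. All 9 points of these profiles come from the same libraries.

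The T cell HOCl library was 1 sample, so its values are given with no test. Pspc1 stood at 50.4 CPM (95% Wilson interval 46.7 to 54.5, counting error only), above both untreated T cell libraries. Nono at 154 CPM and Sfpq at 175 CPM were below both. Neat1 at 111 CPM lay between them, and Malat1 at 538 CPM and Tardbp at 107 CPM lay below both. With mitochondrial genes left out of every total, Pspc1 was 80.6 CPM against 22.4 and 25.5, and Nono and Sfpq were 246 and 280 CPM, still below both untreated libraries. On that scale Neat1 (177 CPM), Malat1 (860.1 CPM) and Tardbp (171 CPM) all lay between the untreated libraries.

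These values stand in a library whose melanocyte markers summed to 6712 CPM and in which 55.4% of the 18525 genes at 0 in the other 8 libraries had a count. All 7 melanocyte markers were present there, from 22.5 CPM for Tyr to 2506 CPM for Tyrp1. Pspc1 in B16F10 was at 54.0 to 77.5 CPM, above its untreated T cell levels. Summed CPM of B cell, myeloid and erythroid markers were 70.1, 46.5 and 25.1 in the T cell HOCl library. In each other library they were at most 26.2, 16.4 and 9.71. The part of melanoma cell RNA, of RNA from other cells, of mitochondrial share and of the low depth in the members' values was not tested. In the authors' deposited table for T cells, Nono, Sfpq, Tardbp and Malat1 stood at log2 fold changes of −1.95, −2.14, −1.85 and −1.90. That table names its groups by number only, and the series has 1 T cell HOCl library. Its changes are not on the CPM scale, so their sizes cannot be set beside the values above. By CPM, Pspc1 in the T cell HOCl library was 2.29 and 2.02 times untreated T cell replicates 1 and 2. In the authors' deposited table Pspc1 stood at 0.27 (adjusted p = 0.742) and Neat1 at −1.06 (adjusted p = 0.242).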

How the data were processed

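RNA from 9 libraries was sequenced on an Illumina platform. The authors deposited raw read counts per gene, not normalised, and result tables. From these deposited tables the log2 changes and the adjusted p-values were read. Tools named in the submitters' processing notes were STAR 2.7.1a, FastQC 0.11.8, DESeq2 1.22.2 and featureCounts 1.6.0, and the build was mm10. Not given in the sources used here were annotation, strand setting, handling of multi-mapping reads and selection of poly(A) RNA. These bear on Neat1 and Malat1, whose long forms lack a poly(A) tail.

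Of 54838 genes, 54809 were found in GENCODE M21, the source of coordinates, and 29 were not. Samples were grouped by title. HOCl against untreated B16F10 (6 libraries) and untreated B16F10 against untreated T cells (5 libraries) were each fitted across all genes with edgeR 4.0.16 in R 4.3.3: filterByExpr, TMM scaling and the quasi-likelihood F test with robust estimation. P-values were adjusted by Benjamini and Hochberg over all genes tested, with a threshold of 0.05. CPM are per M counts of the library's total, as mean ± SD. SE is the log2 fold change over the square root of F. A gene at 0 could stand at up to 3 counts. Within-library ratios were compared by exact permutation in Python 3.11.15. Among the fits, the T cell HOCl library entered only the alternative of 9 libraries, and it was in neither main fit.

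The 6 members and the gene lists were chosen with earlier results of these data known. Named genes were the members, up to 3 of the largest calls in each direction per list with HOCl and up to 2 at baseline, and neighbours. Epas1, Hsf1 and Atf2 are named with HOCl outside that rule. Some genes of the lists enter the counts but are not reported here by name. Gene likeness used log2 CPM with a prior count of 2. The fit was tested on simulated data with the same spread set for all genes and libraries. That test cannot show how the fit deals with spread as uneven as that of the T cell libraries. Alternatives were DESeq2 size factors, no TMM, no mitochondrial genes, no filter, a stricter filter (1 CPM and 50 mean counts), the DESeq2 1.42.0 test, glmTreat against 1.5-fold, joint fits of 8 or 9 libraries, a block for replicate number, and leaving out each library. The use of transcript lengths was added after seeing the data.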

Additional observations from a re-analysis of the deposited data

How the results depend on the processing

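Pspc1 and Malat1 kept their side of the threshold at baseline in all 15 alternatives. With HOCl, glmTreat called 28 genes higher and 45 lower, the fit of 8 libraries 47 and 62, and that of 9 libraries 48 and 61, each with 0 members in either direction, where the fit of 6 libraries called 2366 and 2178. In those fits log2 fold changes were −0.21, −0.20 and −0.20 for Nono, −0.25, −0.25 and −0.25 for Sfpq, 0.41, 0.41 and 0.41 for Pspc1 and −0.31, −0.31 and −0.31 for Tardbp. With no filter Malat1 was −0.17 and passed (adjusted p = 0.0187). Leaving out 1 library gave 1605 to 2819 genes higher and 1410 to 2634 lower with HOCl, 1 to 2 members higher and 3 to 4 lower, Neat1 from −0.0166 to 0.29 and Malat1 from −0.29 to −0.0824.

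At baseline Nono was −0.0557 with DESeq2 size factors, −0.19 with the stricter filter and −0.0221 by DESeq2, and never passed the threshold. Sfpq passed at −0.46 with the stricter filter and at −0.27 in the fits of 8 and 9 libraries. With no filter Neat1 was −2.18 and missed the threshold, which left 1 member lower. Leaving out 1 library gave 1 to 2 members higher and 1 to 4 lower, Neat1 from −2.99 to −0.67, Nono from −0.11 to 0.21, Sfpq from −0.35 to −0.22 and Tardbp from −0.28 to 1.01. A fit that leaves 1 T cell library assumes that it varies like the B16F10 libraries.

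In the T cell HOCl library, leaving out mitochondrial genes gave 177 CPM for Neat1, 860.1 for Malat1, 246 for Nono, 280 for Sfpq, 80.6 for Pspc1 and 171 for Tardbp. The difference in Pspc1 share with HOCl was 2.53 percentage points by exon length and 2.31 by transcript length. Replicate numbers did not pair the libraries: deviations of B16F10 libraries with the same number correlated at 0.0357, −0.00352 and 0.00203. With the replicate block, 2726 genes were higher and 2567 lower with HOCl, and 5320 and 4763 at baseline. No cause was tested for these changes. The T cell HOCl library was the shallowest at 12.85 M counts, and its lowest count of a member was 648.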
